A study of Caenorhabditis elegans with 36 samples.

Results

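The superoxide dismutases and catalases of *C. elegans* are 8 genes, *sod-1* to *sod-5* and *ctl-1* to *ctl-3*, chosen as a family by name and described here out of 46093 genes in the count table. The 36 libraries hold polyadenylated RNA of whole worms, with 6 libraries in each of 6 groups. According to the study's strain list, the mutants were *glp-1(e2141)*, *eat-2(ad1116)*, *ife-2(ok306)* and *osm-5(p813)*, each a single strain, and wild type was N2. Libraries labelled *glp-1* were themselves labelled 25 °C and were set against wild type labelled 25 °C. Those labelled *ife-2*, *osm-5* or *eat-2* were labelled 20 °C and were set against wild type labelled 20 °C. These last 3 comparisons thus share their 6 controls. Wild type labelled 25 °C was itself set against wild type labelled 20 °C in a further comparison. The labels are not of one mind on the conditions, since the growth description gives 20 °C for every library and the stage is given both as adults of the first day and as young adults that were not yet fertile. All groups shared the same bacterial food, and no other allele or agent is named. Nothing in the labels says that the 6 libraries of a group came from separate cultures, so p-values measure the spread between these libraries.

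Superoxide dismutases turn superoxide into hydrogen peroxide, and catalases break hydrogen peroxide down to water and oxygen. In the worm the isoforms divide by place in the cell: *sod-1* and *sod-5* encode cytosolic Cu/Zn enzymes, *sod-2* and *sod-3* encode mitochondrial manganese enzymes and *sod-4* encodes an extracellular Cu/Zn enzyme. Of the catalases, *ctl-2* encodes the peroxisomal enzyme and *ctl-1* a cytosolic one, and *ctl-3* encodes a further enzyme of the family. *sod-3* is widely used as a readout of the FOXO transcription factor DAF-16.

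The libraries held 35524715 to 55878280 counts. One of them, *osm-5* replicate 3, stood apart: 45.3% of its counts came from genes with under 500 exon bases, against 5.19% to 7.68% in the other 35 libraries, and its TMM scaling factor was 0.426, against 0.694 to 1.27. Fold changes of the members tested in *osm-5* are therefore given with and without it, and values of single other genes and medians of lists with it only. The order of the groups for each member is given without it. Some transcripts went against the labels, so that the groups are called by their labels only. The transcript of *ife-2*, which encodes a translation initiation factor, was at 3.15 to 3.88 CPM in libraries labelled *eat-2* and at 60.7 to 77.6 CPM in libraries labelled *ife-2*, against 22.5 to 24.86 CPM in wild type labelled 20 °C. The summed level of 20 germ line transcripts was 77.4 to 98.6 CPM in libraries labelled *ife-2*, against 5540 to 8205 CPM in wild type labelled 20 °C. In libraries labelled *glp-1* it was 3520 to 6412 CPM, against 4590 to 8952 CPM in wild type labelled 25 °C. In whole worms, fewer cells of a type and less RNA per cell cannot be told apart.

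CPM are counts scaled to library size by TMM over all 36 libraries, a level per library that is not comparable between genes. For other antioxidant genes, CPM given as mean ± SD were instead scaled by TMM within the 12 libraries of their comparison. Those are not on the scale of the members. Groups can be compared only as far as the scaling holds. In libraries labelled *ife-2*, other scalings changed the sign of *sod-1*, *sod-2* and *sod-4*. Per kilobase of exon, the wild type labelled 20 °C had mean levels of 149.6 CPM per kb for *sod-1*, 86.0 for *sod-2*, 45.7 for *ctl-2*, 28.01 for *ctl-1*, 13.1 for *ctl-3*, 7.38 for *sod-4*, 2.93 for *sod-3* and 0.168 for *sod-5*. The cytosolic, mitochondrial and peroxisomal enzymes *sod-1*, *sod-2* and *ctl-2* were thus the abundant forms. In libraries labelled *ife-2*, *ctl-2* stood above *sod-2*, at 113.5 against 93.3 CPM per kb, and *sod-3* stood above *ctl-3*, at 17.2 against 2.03 CPM per kb.

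**Figure D1:**
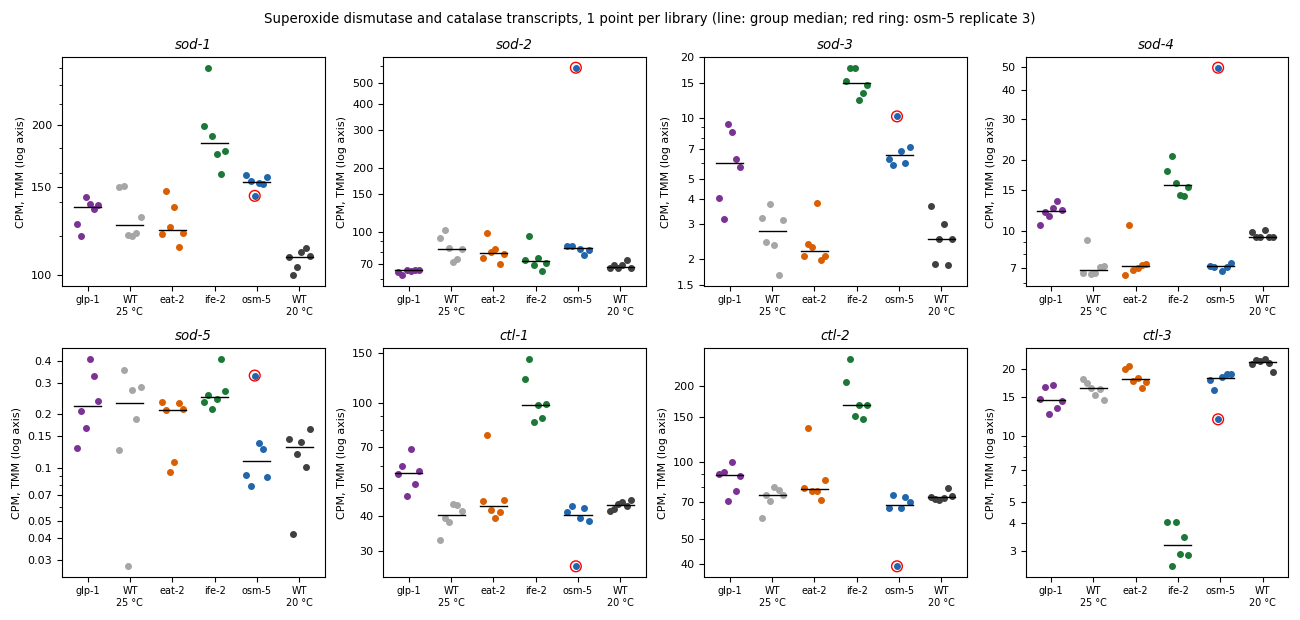
Level of each of the 8 transcripts in CPM (log axis) in every library, by group, with the group median as a line and *osm-5* replicate 3 ringed in red. Libraries labelled *ife-2* lie highest for *sod-3* (12.3 to 17.8 CPM) and lowest for *ctl-3* (2.55 to 4.05 CPM), and the ringed library lies far from its group for *sod-2* (591.4 CPM) and *sod-4* (49.6 CPM).

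The genes lie on 4 chromosomes of WBcel235. *sod-1* is at chromosome II 6972706 to 6973887, *sod-5* at II 4417633 to 4419130, *sod-2* at I 8434550 to 8435807, *sod-4* at III 9496884 to 9500375 and *sod-3* at X 17092753 to 17094306. The 3 catalase genes stand in a row on the minus strand of chromosome II, with *ctl-2* at 14299556 to 14302027, *ctl-1* at 14303568 to 14306260 and *ctl-3* at 14307798 to 14310779, separated by gaps of 1540 and 1537 bases. Exons of every member but *sod-5*, *ctl-1* and *ctl-3* overlap exons of a gene on the other strand, namely C15F1.13 for *sod-1*, *dpt-1* for *sod-2*, C08A9.3 and *lido-1* for *sod-3*, *ctr-9* for *sod-4* and Y54G11A.7 for *ctl-2*. No source says if counting was strand-specific, so reads from such pairs might not be told apart, and how far the catalases share sequence was not examined.

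Calls were made in edgeR's quasi-likelihood test at 0.01, after Benjamini-Hochberg adjustment over all genes tested. In libraries labelled *glp-1* against wild type labelled 25 °C, *sod-3*, *sod-4* and *ctl-1* rose and *sod-2* fell, so that 4 of the 8 members were called, and 22.9% of all 16513 genes tested were called. The share called higher was 12% of all genes, and the share called lower was 10.9%. The groups did not overlap for 20.4% of them. *sod-3* stood at 3.18 CPM in the lowest library labelled *glp-1*, with a median of 6.02 and a highest value of 9.40, against 1.67, 2.78 and 3.76 CPM in wild type labelled 25 °C. The groups overlapped, since the lowest library labelled *glp-1* (replicate 2) lay under the highest wild type (replicate 3). The rise was 2.29-fold (log2 1.196 ± 0.27 SE, adjusted p = 0.0036 by edgeR), and without wild type labelled 25 °C replicate 2 it was log2 1.16 with an adjusted p of 0.0103.

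The extracellular *sod-4* stood at 10.6 CPM in the lowest library labelled *glp-1*, with a median of 12.18 and a highest value of 13.5, against 6.59, 6.84 and 9.18 CPM in wild type labelled 25 °C. The 6 libraries of each group did not overlap, and the rise was 1.71-fold (log2 0.77 ± 0.10 SE, adjusted p = 5.8e-05 by edgeR). In one fit of all 36 libraries *sod-4* was not called (log2 0.75, adjusted p = 0.0862), and against wild type labelled 20 °C its rise was log2 0.33 (adjusted p = 0.0011). Mitochondrial *sod-2* lay within 62.2 to 66.1 CPM (median 65.6) in libraries labelled *glp-1*, against 71.9 to 101.8 CPM (median 83.1) in wild type labelled 25 °C. It was the only member to fall there (log2 -0.35 ± 0.08 SE, adjusted p = 0.0038 by edgeR), while the isoform of the same compartment, *sod-3*, rose. That fall was not called under scaling by total counts (log2 -0.17, adjusted p = 0.0987) or scaling to muscle genes (log2 -0.32, adjusted p = 0.154), or without *glp-1* replicate 2 (log2 -0.34, adjusted p = 0.0106). Nor was it called against wild type labelled 20 °C (log2 -0.08, adjusted p = 0.112), with a replicate block (adjusted p = 0.0191) or in one fit of 36 libraries (adjusted p = 0.432). Cytosolic *sod-1* did not pass, with a median of 136.7 CPM in libraries labelled *glp-1* against 126.2 CPM in wild type labelled 25 °C (log2 0.04 ± 0.08 SE).

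Of the catalases, *ctl-1* stood at 47.1 to 68.6 CPM (median 56.7) in libraries labelled *glp-1*, against 32.9 to 44.1 CPM (median 40.3) in wild type labelled 25 °C, without overlap. Its rise was 1.45-fold (log2 0.53 ± 0.10 SE, adjusted p = 0.0012 by edgeR). Peroxisomal *ctl-2* had medians of 89.2 CPM in libraries labelled *glp-1* and 74.6 CPM in wild type labelled 25 °C and did not pass (log2 0.27 ± 0.10 SE, adjusted p = 0.0438 by edgeR). *ctl-3* did not pass either (log2 -0.12 ± 0.09 SE, adjusted p = 0.350 by edgeR). Against wild type labelled 20 °C, *sod-1* (log2 0.31, adjusted p = 0.00030) was called higher and *ctl-3* (log2 -0.53, adjusted p = 0.00026) lower in libraries labelled *glp-1*. Summed intestine transcripts were at 3383 to 4391 CPM in libraries labelled *glp-1*, against 5187 to 6535 CPM in wild type labelled 25 °C, and their part in these changes was not tested.

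In wild type labelled 25 °C against wild type labelled 20 °C, *sod-1* rose and *sod-4* and *ctl-3* fell. These were 3 of 7 members tested, where 23.9% of 16506 genes were called, 13% higher and 11% lower, and groups did not overlap for 19.4%. *sod-4* stood at 6.59 to 9.18 CPM (median 6.84) at the label of 25 °C, against 9.41 to 10.1 CPM (median 9.47) at 20 °C, with no overlap (log2 -0.44 ± 0.09 SE, adjusted p = 0.0012 by edgeR). *ctl-3* stood at 14.4 to 18.1 CPM (median 16.4) at 25 °C, against 19.4 to 22.4 CPM (median 21.7) at 20 °C, also with no overlap (log2 -0.41 ± 0.07 SE, adjusted p = 0.00038 by edgeR). *sod-1* stood at 119.99 to 151.0 CPM (median 126.2) at 25 °C, against 99.95 to 113.2 CPM (median 108.9) at 20 °C (log2 0.28 ± 0.07 SE, adjusted p = 0.0080 by edgeR).

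The groups did not overlap for *sod-1*, yet the call was lost in 8 of 12 fits that left out a library, with log2 values from 0.25 to 0.32. Those were the fits without wild type labelled 25 °C replicate 1, 2 or 6 and without wild type labelled 20 °C replicate 1, 2, 3, 4 or 6. It was also lost under scaling to muscle genes (log2 0.0017, adjusted p = 0.992). *sod-2* had a median of 83.1 CPM at 25 °C and 68.3 CPM at 20 °C and did not pass (log2 0.27 ± 0.08 SE, adjusted p = 0.0150 by edgeR), nor did *sod-3* (log2 0.07 ± 0.20 SE), *ctl-1* (log2 -0.15 ± 0.07 SE) and *ctl-2* (log2 -0.03 ± 0.07 SE). Summed intestine transcripts were at 5187 to 6535 CPM at 25 °C, against 4025 to 4177 CPM at 20 °C, and their part was not tested.

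In libraries labelled *eat-2* against wild type labelled 20 °C, 1 of 7 members rose and 1 fell, where 31.2% of 16627 genes were called, 18.4% higher and 12.8% lower, and groups did not overlap for 22.6%. *sod-1* stood at 114.2 to 147.4 CPM (median 123.2) in libraries labelled *eat-2*, against 99.95 to 113.2 CPM (median 108.9) in wild type labelled 20 °C. The groups did not overlap, and the rise was 1.18-fold (log2 0.24 ± 0.06 SE, adjusted p = 0.0036 by edgeR), but scaling to muscle genes turned it to log2 -0.12. *sod-1* was not called without wild type labelled 20 °C replicate 2 (log2 0.21, adjusted p = 0.0140) or replicate 3 (log2 0.23, adjusted p = 0.0109). *sod-4* stood at 6.50 to 10.7 CPM (median 7.099) in libraries labelled *eat-2*, against 9.41 to 10.1 CPM (median 9.47) in wild type labelled 20 °C.

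The groups overlapped through *eat-2* replicate 2, the highest library, and the fall of *sod-4* was close to the threshold (log2 -0.35 ± 0.10 SE, adjusted p = 0.0099 by edgeR). It was lost in 11 of 12 fits that left out a library, in every one but that without *eat-2* replicate 2, where *sod-4* was at its lowest log2 value of -0.45. *eat-2* replicate 2 was also the highest of its group for *ctl-1* (77.3 CPM, against 39.1 to 45.5 in the other libraries labelled *eat-2*) and *ctl-2* (135.9 CPM, against 71.3 to 85.3). Of the rest, *sod-2* (log2 0.22 ± 0.06 SE, adjusted p = 0.0102) and *ctl-3* (log2 -0.21 ± 0.06 SE, adjusted p = 0.0124) missed the threshold in edgeR. Summed muscle transcripts were at 19417 to 21480 CPM in libraries labelled *eat-2*, against 15422 to 16986 CPM in wild type labelled 20 °C, and intestine transcripts at 4818 to 6500 CPM, against 4025 to 4177 CPM, and their part was not tested.

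The values of the libraries labelled *eat-2* lay near those of wild type labelled 25 °C. Set against each other, 0.288% of all genes were called, and of the 7 members tested none was. In edgeR the smallest adjusted p of a member there was 0.4998, for *ctl-3* (log2 0.18 ± 0.09 SE). The differences were log2 -0.05 ± 0.09 SE for *sod-1*, -0.06 ± 0.10 for *sod-2*, -0.17 ± 0.20 for *sod-3*, 0.08 ± 0.14 for *sod-4*, 0.28 ± 0.16 for *ctl-1* and 0.27 ± 0.15 for *ctl-2*. *sod-1* and *sod-4*, called against wild type labelled 20 °C, thus changed sign with this control and were not called.

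In libraries labelled *ife-2* against wild type labelled 20 °C, 5 members rose and 1 fell of 7 tested. Here 85.1% of 16636 genes were called, 44.1% higher and 40.9% lower, and groups did not overlap for 77.5%, so that the count alone is near the background. The largest rise was that of *sod-3*, at 12.3 to 17.8 CPM (median 14.9) in libraries labelled *ife-2*, against 1.87 to 3.67 CPM (median 2.53) in wild type labelled 20 °C. Every library labelled *ife-2* lay above every wild type, and the rise was 6.30-fold (log2 2.66 ± 0.15 SE, adjusted p = 8.5e-11 by edgeR). *ctl-3* moved the other way, at 2.55 to 4.05 CPM (median 3.18) in libraries labelled *ife-2*, against 19.4 to 22.4 CPM (median 21.7) in wild type labelled 20 °C. It fell to 0.167 of the wild-type level (log2 -2.58 ± 0.11 SE, adjusted p = 1.7e-12 by edgeR), with no overlap.

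The neighbours of *ctl-3* on the chromosome rose. *ctl-2* stood at 147.6 to 255.2 CPM (median 167.4) in libraries labelled *ife-2*, against 71.4 to 79.0 CPM (median 73.0) in wild type labelled 20 °C, a 2.66-fold rise (log2 1.41 ± 0.11 SE, adjusted p = 8.4e-09 by edgeR). *ctl-1* stood at 85.6 to 143.2 CPM (median 98.6), against 41.5 to 45.4 CPM (median 43.7) in wild type, a 2.61-fold rise (log2 1.39 ± 0.11 SE, adjusted p = 4.9e-09 by edgeR). *sod-1* stood at 159.3 to 260.5 CPM (median 183.6) in libraries labelled *ife-2*, against 99.95 to 113.2 CPM (median 108.9) in wild type (log2 0.95 ± 0.09 SE, adjusted p = 9.6e-08 by edgeR). *sod-4* stood at 14.1 to 20.96 CPM (median 15.8), against 9.41 to 10.1 CPM (median 9.47) in wild type (log2 0.88 ± 0.08 SE, adjusted p = 7.4e-08 by edgeR). For all of these the groups did not overlap. *sod-2* had medians of 72.3 CPM in libraries labelled *ife-2* and 68.3 CPM in wild type and did not pass (log2 0.22 ± 0.08 SE, adjusted p = 0.0120 by edgeR).

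Marker transcripts of other cell types differed as well. Summed muscle transcripts (16 genes) were at 27077 to 39509 CPM in libraries labelled *ife-2*, against 15422 to 16986 CPM in wild type labelled 20 °C. Intestine transcripts (10 genes) were at 9096 to 14203 CPM, against 4025 to 4177 CPM in wild type, and neuron transcripts (13 genes) at 665.1 to 840.4 CPM, against 472.6 to 529.9 CPM in wild type. Of the 20 germ line transcripts 5 reached 10 counts in every library labelled *ife-2*, against 20 in wild type, and the defining marker *pgl-1* was at 0.0515 to 0.700 CPM, against 299.7 to 371.8 CPM in wild type. The part of these cell types in the changes of the members was not tested.

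Scaling to the muscle genes put the median over all genes at log2 -0.91, against 0.17 under TMM. Under that scaling *sod-3* still rose (log2 1.58, adjusted p = 2.1e-07), *ctl-2* rose by less (log2 0.32, adjusted p = 0.0093) and *ctl-3* fell by more (log2 -3.66, adjusted p = 1.6e-13). *sod-2* was then lower (log2 -0.87, adjusted p = 9.6e-09), as it was under scaling by total counts (log2 -0.31, adjusted p = 0.00031). Under upper-quartile scaling *sod-2* was called higher (log2 0.67, adjusted p = 1.1e-06), so that its direction depended on the scaling. *sod-1* (log2 -0.14) and *sod-4* (log2 -0.21) changed sign under muscle scaling and were not called, and *ctl-1* was not called (log2 0.29, adjusted p = 0.0132). All p-values are edgeR's.

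In libraries labelled *osm-5* against wild type labelled 20 °C, *sod-3* and *sod-1* rose and no member fell, where 18% of 16587 genes were called, 7.01% higher and 10.9% lower, and groups did not overlap for 27.6%. *sod-3* stood at 5.89 to 10.2 CPM (median 6.59) in libraries labelled *osm-5*, against 1.87 to 3.67 CPM (median 2.53) in wild type labelled 20 °C, with no overlap. The rise was 2.86-fold (log2 1.52 ± 0.21 SE, adjusted p = 0.00022 by edgeR), and 2.53-fold (log2 1.34, adjusted p = 3.4e-06) without *osm-5* replicate 3. *sod-1* stood at 144.2 to 159.0 CPM (median 153.7) in libraries labelled *osm-5*, against 99.95 to 113.2 CPM (median 108.9) in wild type, also with no overlap. It rose 1.47-fold (log2 0.56 ± 0.05 SE, adjusted p = 1.4e-05 by edgeR), or log2 0.54 without replicate 3, and under scaling by total counts it was not called (log2 0.23, adjusted p = 0.452), nor against wild type labelled 25 °C (log2 0.24).

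Replicate 3 decided the other superoxide dismutases. *sod-2* stood at 591.4 CPM there and at 77.7 to 85.6 CPM in the other 5 libraries labelled *osm-5*, against 66.97 to 73.2 CPM in wild type. With all libraries the difference was log2 1.39 ± 0.56 SE and did not pass (adjusted p = 0.0709 by edgeR), and without replicate 3 it was log2 0.27 ± 0.04 SE and passed (adjusted p = 0.00012). *sod-4* stood at 49.6 CPM in replicate 3 and at 6.79 to 7.33 CPM in the other 5 libraries, against 9.41 to 10.1 CPM in wild type.

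Its difference turned from log2 0.66 ± 0.55 SE, which did not pass, to -0.43 ± 0.05 SE without replicate 3 (adjusted p = 9.2e-06 by edgeR). *ctr-9*, which overlaps *sod-4* on the other strand and encodes a subunit of the PAF1 transcription complex, had its highest level of the group at 354.8 CPM, against a group median of 135.6 CPM. *dpt-1*, which overlaps *sod-2* on the other strand, had no such high value, with 97.1 to 145.1 CPM (median 141.0) in libraries labelled *osm-5*. The part of reads from the other strand was not tested. With all libraries no catalase was called in edgeR. The values were log2 -0.28 for *ctl-3* (adjusted p = 0.0336), -0.13 for *ctl-1* (adjusted p = 0.239) and -0.14 for *ctl-2* (adjusted p = 0.347). Without replicate 3 *ctl-3* was called (log2 -0.23, adjusted p = 0.0023), and *ctl-1* (log2 -0.08, adjusted p = 0.151) and *ctl-2* (log2 -0.06, adjusted p = 0.308) were not. Without replicate 3 the members called were thus 3 higher and 2 lower, where 45% of all genes were called.

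**Figure D2:**
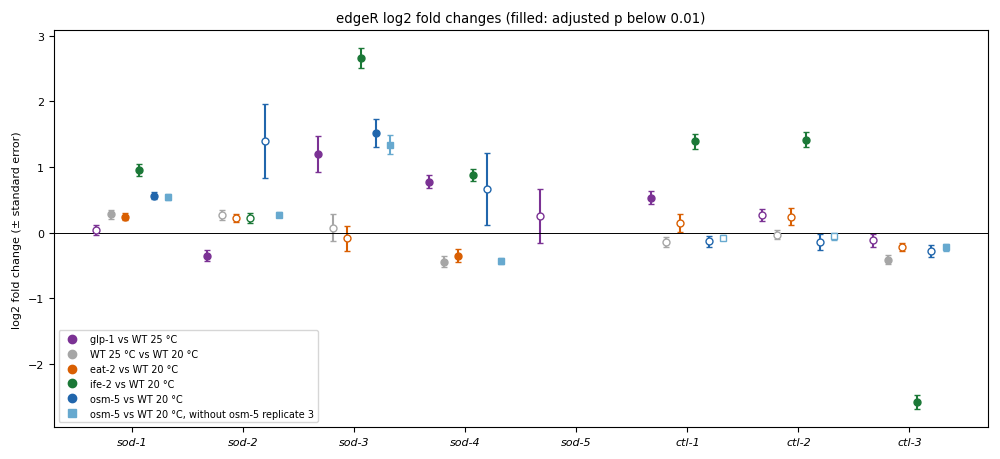
Log2 fold change ± standard error of each transcript in the 5 comparisons, each named as numerator and control, with filled symbols at an adjusted p below 0.01, and squares for *osm-5* without replicate 3. *sod-3* was up in *glp-1* (1.196), *ife-2* (2.66) and *osm-5* (1.52), *ctl-3* was lowest in *ife-2* (-2.58), and *sod-4* in *osm-5* changed sign without replicate 3 (0.66 with it and -0.43 without).

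*sod-5*, the second cytosolic form, had 1 to 23 counts per library in all 36, too few for the filter in every comparison but *glp-1*. There it had a median of 0.224 CPM in libraries labelled *glp-1* and 0.231 CPM in wild type labelled 25 °C (log2 0.25 ± 0.41 SE, adjusted p = 0.669 by edgeR), so a difference was not detectable at this depth. With no filter on low counts it passed in libraries labelled *ife-2* (log2 1.17 ± 0.32 SE, adjusted p = 0.0035 by edgeR), at 0.213 to 0.412 CPM, against 0.0421 to 0.165 CPM in wild type labelled 20 °C.

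A single fit over all libraries placed the 6 groups on a scale of their own for each gene, here without *osm-5* replicate 3, whose spread enters every comparison of *sod-2* and *sod-4*. Of 17419 genes, that fit called 86.3% between *ife-2* and *osm-5* and 76.2% between *glp-1* and *ife-2*. It called 32.6% for *glp-1* over the wild type of 25 °C, 26.6% for *glp-1* over that of 20 °C and 27.7% for *eat-2* over that of 20 °C. For *sod-3* the order was *ife-2*, *osm-5*, *glp-1*, the wild type of 25 °C, the wild type of 20 °C and *eat-2*. *ife-2* lay above *osm-5* (adjusted p = 4.4e-06 by edgeR) and *glp-1* above wild type labelled 25 °C (adjusted p = 1.9e-05), while *glp-1* and *osm-5* did not differ beyond their spread (log2 -0.04 ± 0.21 SE), nor did the last 3 groups. For *sod-4*, *ife-2* lay above *glp-1* (adjusted p = 0.00033) and *glp-1* above wild type labelled 20 °C (adjusted p = 0.0044). Wild type labelled 20 °C lay above *eat-2* (adjusted p = 0.0072), and *eat-2*, *osm-5* and wild type labelled 25 °C did not differ beyond their spread.

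For *sod-1*, *ife-2* lay above *osm-5* (adjusted p = 0.0017 by edgeR) and *eat-2* above wild type labelled 20 °C (adjusted p = 0.0096), and the neighbours between them, *osm-5*, *glp-1*, wild type labelled 25 °C and *eat-2*, did not pass. No pair of neighbours passed for *sod-2*, whose medians ran from 83.1 CPM in wild type labelled 25 °C down to 65.6 CPM in *glp-1*. For *ctl-1* and *ctl-2* one step passed, that from *ife-2* to *glp-1* (adjusted p = 1.7e-07 and 2.3e-09). For *ctl-3* one step passed as well, that between *glp-1* and *ife-2* at the low end (adjusted p = 1.7e-20).

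A ratio of 2 counts within a library does not depend on the scaling. The log2 ratios of 5 pairs were examined in the 5 comparisons. The test was a two-sided exact permutation test of 6 libraries against 6, whose smallest p is 0.0022, with p-values adjusted over the 25. For the mitochondrial pair, *sod-3*/*sod-2* was at -4.28 to -2.81 in libraries labelled *glp-1*, against -5.46 to -4.46 in wild type labelled 25 °C. All libraries labelled *glp-1* lay above all wild type, by a mean of 1.48 (exact adjusted p = 0.0060). It was at -2.60 to -1.98 in libraries labelled *ife-2*, against -5.27 to -4.18 in wild type labelled 20 °C, a mean difference of 2.46 (exact adjusted p = 0.0060). In libraries labelled *osm-5* the difference was 0.73 (exact adjusted p = 0.174), and 1.09 without replicate 3 (exact adjusted p = 0.0098).

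For the extracellular form over the cytosolic one, *sod-4*/*sod-1* was at -3.62 to -3.31 in libraries labelled *glp-1*, against -4.50 to -4.04 in wild type labelled 25 °C, a difference of 0.74 (exact adjusted p = 0.0060). The same wild type lay under wild type labelled 20 °C, at -3.58 to -3.41, by -0.72, and libraries labelled *eat-2* lay under it by -0.61 (exact adjusted p = 0.0060 each). The libraries labelled *glp-1* thus stood at a mean ratio of -3.46, near the -3.48 of wild type labelled 20 °C. In libraries labelled *ife-2* the difference was -0.07 and did not pass (exact adjusted p = 0.174). Both *sod-1* and *sod-4* were called higher there under TMM but not under muscle scaling. Their ratio does not show if either rose. In libraries labelled *osm-5* it was -0.49 (exact adjusted p = 0.482) with replicate 3 and -0.97 (exact adjusted p = 0.0098) without it.

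**Figure D3:**
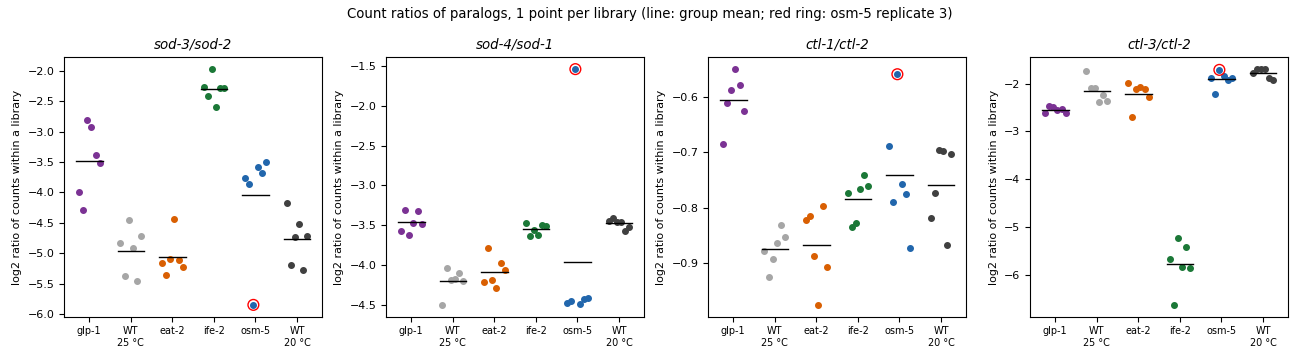
Log2 ratio of counts of 4 pairs within each library, by group, with the group mean as a line and *osm-5* replicate 3 ringed in red. *ctl-3*/*ctl-2* falls to a mean of -5.77 in libraries labelled *ife-2*, against -1.78 in wild type labelled 20 °C, and *sod-3*/*sod-2* lies highest there, at a mean of -2.31.

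The catalases changed their proportions in the comparisons other than that of *osm-5*. *ctl-3* made up 0.636% to 1.68% of catalase counts in libraries labelled *ife-2*, against 14.01% to 16.2% in wild type labelled 20 °C. The log2 ratio *ctl-3*/*ctl-2* differed by -3.99 (exact adjusted p = 0.0060). *ctl-3* also lost share in libraries labelled *glp-1*, with 8.97% to 9.87%, against 10.9% to 16.3% in wild type labelled 25 °C, a difference of -0.39 in the ratio (exact adjusted p = 0.0060). The ratio was lower in wild type labelled 25 °C (-0.37, exact adjusted p = 0.0216) and in libraries labelled *eat-2* (-0.43, exact adjusted p = 0.0060), each against wild type labelled 20 °C. In libraries labelled *osm-5*, with replicate 3, it differed by -0.13 and did not pass (exact adjusted p = 0.195).

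*ctl-1*/*ctl-2* was at -0.69 to -0.55 in libraries labelled *glp-1*, against -0.92 to -0.83 in wild type labelled 25 °C, a difference of 0.27 (exact adjusted p = 0.0060). Between wild type labelled 25 °C and 20 °C it differed by -0.11 (exact adjusted p = 0.0246). It did not pass in libraries labelled *eat-2* (-0.11, exact adjusted p = 0.0631) or *osm-5* with replicate 3 (0.02, exact adjusted p = 0.745). In libraries labelled *ife-2* the difference was -0.02 (exact adjusted p = 0.519), so that *ctl-1* and *ctl-2*, each over 2.6-fold up under TMM, changed by about the same factor. *sod-5*/*sod-1* passed in none of the 5 comparisons, with exact adjusted p-values of 0.481 to 0.555.

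**Figure D4:**
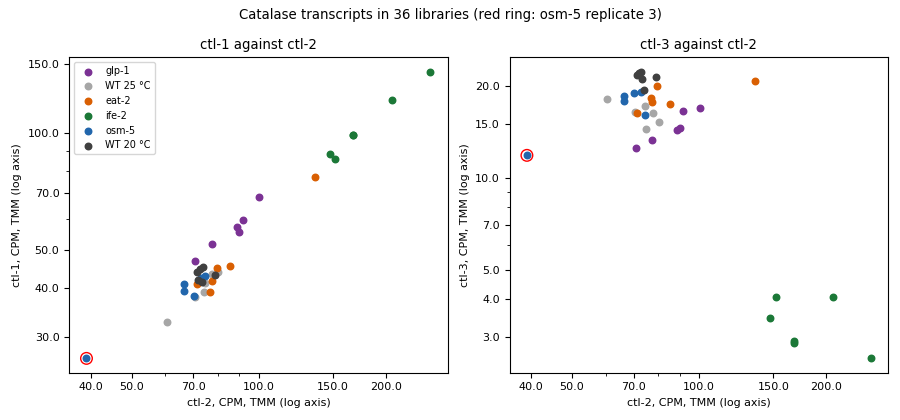
*ctl-1* (left) and *ctl-3* (right) against *ctl-2*, in CPM on log axes, with 1 point per library coloured by group and *osm-5* replicate 3 ringed in red. *ctl-1* and *ctl-2* lie along one line (r 0.98 over 36 libraries), and the libraries labelled *ife-2* lie apart at high *ctl-2* and at 2.55 to 4.05 CPM of *ctl-3*.

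Over the 36 libraries, the log2 CPM of *ctl-1* and *ctl-2* had a Pearson r of 0.98. Each was the nearest to the other of all genes tested, followed by *ges-1*, an intestinal esterase (r 0.97 for *ctl-1* and 0.98 for *ctl-2*). The transcript most like *ctl-3* was *nhr-23*, a nuclear hormone receptor of the molting cycle (r 0.98), followed by F35G12.5 (r 0.98). *ctl-3* itself had an r of -0.81 with *ctl-2*. Nearest to *sod-3* were *col-103*, a collagen, and *inx-9*, an innexin (r 0.95 each), and nearest to *sod-1* were *adh-5*, an alcohol dehydrogenase, and *mdh-1*, a malate dehydrogenase (r 0.92 each). Without *osm-5* replicate 3 the nearest to *sod-1* were B0454.5 and C29G2.6 (r 0.96 each), and F35G12.5 was nearest to *ctl-3* (r 0.99).

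*sod-4* was nearest to *pxd-1* and *spig-10* (r 0.96 each) and *sod-5* to *madf-4* and *stg-2* (r 0.74 each), and without *osm-5* replicate 3 *sod-4* was nearest to *cyp-33C7* (r 0.96) and *sod-5* to *acr-8* (r 0.73). *sod-2* was nearest to Y37E3.8 and *rps-28*, a ribosomal protein gene (r 0.99 each), and without *osm-5* replicate 3 these had r 0.92 each. Without that library the r between *sod-2* and *sod-4* was -0.31, against 0.52 with it. The points share the groups' differences in germ line, muscle and intestine transcripts and are given as a description. *ges-1* is itself one of the intestine transcripts summed above.

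Other genes of the same defence were read from the study's antioxidant list, 23 enzymes of peroxide and thiol metabolism and 47 glutathione S-transferases. In libraries labelled *glp-1*, of 22 peroxide and thiol genes tested 3 rose and 10 fell (median log2 -0.18, against 0.02 for all genes), and of 40 glutathione S-transferases 9 rose and 6 fell (median 0.18), where 22.9% of all genes were called. The 13 peroxide and thiol calls were 6 under scaling by total counts, 8 without *glp-1* replicate 1, 2 or 5, and 7 without *glp-1* replicate 6. Thioredoxin reductase *trxr-1* rose (192.2 ± 10.1 CPM in libraries labelled *glp-1* against 149.3 ± 4.92 CPM in wild type labelled 25 °C, SD, log2 0.36). *glrx-21*, a glutaredoxin (log2 -0.70), and *gpx-7*, a glutathione peroxidase (log2 -0.51), fell. Of the transferases, *gst-33* (log2 3.52) and *gst-24* (log2 1.89) rose most and *gst-22* (log2 -1.20) and *gst-38* (log2 -1.15) fell most. The spread of *gst-33* was wider than its mean in libraries labelled *glp-1*, at 20.2 ± 28.2 CPM against 1.76 ± 0.22 CPM (SD).

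In wild type labelled 25 °C, of 21 peroxide and thiol genes 3 rose and 2 fell, and of 40 transferases 7 rose and 10 fell, with median log2 values of 0.16 and -0.01, against -0.02 for all genes, of which 23.9% were called. *gpx-5* (log2 0.70), *gpx-1* (log2 0.37), *gst-38* (log2 1.48) and *gst-10* (log2 1.42) rose, and *gpx-8* (log2 -1.61), mitochondrial thioredoxin reductase *trxr-2* (log2 -0.50), *gst-33* (log2 -2.53) and *gst-14* (log2 -1.93) fell. Here *gst-33* was at 1.75 ± 0.22 CPM, against a widely spread 10.1 ± 13.9 CPM in wild type labelled 20 °C (SD). In libraries labelled *eat-2*, 1 of 21 rose and 2 fell, and 6 of 40 transferases rose and 10 fell (medians 0.09 and 0.04, against 0.01 for all genes, of which 31.2% were called). *gpx-5* (log2 0.48), *gst-10* (log2 1.303) and *gst-38* (log2 1.21) rose, and *gpx-8* (log2 -1.83), *trxr-2* (log2 -0.64), *gst-14* (log2 -2.41) and *gst-34* (log2 -1.93) fell.

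In libraries labelled *ife-2*, 12 of 22 peroxide and thiol genes rose and 9 fell (median log2 0.36, against 0.17 for all genes), and 30 of 41 transferases rose and 5 fell (median 1.14). With 85.1% of all genes called, the transferase count of 35 of 41 called, without regard to direction, is at the background. By direction, 44.1% of all genes were called higher and 40.9% lower, and the transferases' split was not tested against these shares. *gpx-5* stood at 138.3 ± 8.99 CPM in libraries labelled *ife-2* against 36.2 ± 2.43 CPM in wild type labelled 20 °C (SD, log2 1.93), and *gpx-7* rose too (log2 1.34). *gpx-8* (log2 -5.35) and *trxr-2* (log2 -1.45) fell. *gst-38* (log2 3.48) and *gst-10* (log2 2.97) rose most, and *gst-12* (log2 -1.005) and *gst-14* (log2 -0.88) fell most. In libraries labelled *osm-5*, 3 of 21 rose and 2 fell, and 6 of 41 transferases rose and none fell (medians 0.65 and 0.63, against 0.05 for all genes, of which 18% were called). Without *osm-5* replicate 3 these were 7 higher and 4 lower of 21, and 10 higher and 7 lower of 39, where 45% of all genes were called, so that both counts are near the background. With all libraries, *gpx-4* (log2 1.297), *gpx-5* (log2 0.53), *gst-38* (log2 3.59) and *gst-10* (log2 1.97) rose, and *trx-3*, a thioredoxin (log2 -1.90), and *trxr-2* (log2 -0.49) fell. The spread was wide for *gst-38*, at 16.5 ± 28.1 CPM in libraries labelled *osm-5* against 1.36 ± 0.24 CPM in wild type (SD). For *gst-10* it was 111.2 ± 88.6 CPM against 28.4 ± 5.94 CPM. Values of these genes without replicate 3 are not given, so that library's part in their rise is not shown.

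Of 8 regulators of these genes, none passed in libraries labelled *glp-1* at an adjusted p of 0.01 in edgeR, where the smallest was 0.0313, for the insulin receptor gene *daf-2* (log2 0.36). The DAF-16 gene *daf-16* had log2 values of -0.20 in *glp-1*, -0.24 in wild type labelled 25 °C, -0.24 in *eat-2* and -0.34 in *osm-5*, none of them called, and -0.25 in *ife-2*, which was (adjusted p = 0.0019 by edgeR). The level of its transcript does not measure the activity of the protein. *pqm-1*, a transcription factor, fell in wild type labelled 25 °C (log2 -0.999), *eat-2* (-0.81) and *osm-5* (-1.17) and rose in *ife-2* (0.50). *daf-2* fell in wild type labelled 25 °C (log2 -0.73), *eat-2* (-0.60) and *ife-2* (-1.18). The mitochondrial stress regulator *atfs-1* fell in wild type labelled 25 °C (log2 -0.55), *eat-2* (-0.60), *ife-2* (-0.48) and *osm-5* (-0.65).

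In all, 3 of the 8 regulators fell in wild type labelled 25 °C, 5 in *eat-2* and 2 in *osm-5*, and in *ife-2* 6 fell and 2 rose. Without *osm-5* replicate 3 it was 5 in *osm-5*. Over all genes the share called was 23.9% in wild type labelled 25 °C, 31.2% in *eat-2*, 18% in *osm-5* (45% without replicate 3) and 85.1% in *ife-2*. In *ife-2* the heat shock factor *hsf-1* (log2 -1.67), the kinase *akt-1* (log2 -1.30) and *skn-1* (log2 -0.57), an oxidative stress factor, fell, and the kinase *sgk-1* rose (log2 0.96). In *eat-2*, *akt-1* (log2 -0.31) and *skn-1* (log2 -0.39) fell as well.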

How the data were processed

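Whole worm RNA of 36 libraries was analysed from one table of counts per gene that the authors deposited. According to the study's methods, reads were aligned with STAR to WBcel235, and transcripts were quantified with Salmon and summed to genes with tximport. Those methods name other deposits of data, and whether this table was made in the same way was not checked. Versions and whether counting used the strand are not given in the sources used here. Symbols came from the Ensembl annotation, release 115.

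Each comparison used edgeR 4.0.16 (glmQLFit, glmQLFTest, TMM) in R 4.3.3 on 12 libraries. Genes entered if 6 libraries or more held 10 counts or more, and calls used a Benjamini-Hochberg adjusted p under 0.01. The fits were tried on simulated counts for the *eat-2* comparison only, drawn from wild-type means with rises and falls equal in number and size. Such counts do not cover the wide shifts in *ife-2* or a library like *osm-5* replicate 3. Ratios were log2 of (count + 1)/(count + 1), compared over all 924 arrangements of 6 against 6 libraries and called at 0.05. Likeness used log2 CPM with a prior count of 2.

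Named were the 8 members in every comparison and, from each other list, up to 2 rises and 2 falls, the largest among genes past the threshold without overlap and with a mean of at least 10 counts. Members and lists were chosen with earlier results of these data known. The fit without *osm-5* replicate 3 of all groups was added after seeing the data. A planned search of promoters for motifs was not run, and sequences are not analysed here. No replicates agreed within sampling noise (chi-square per gene at least 7.74 over 90 pairs). Pairs within a group were unevenly alike, from 19.9 to 195.6 in wild type labelled 25 °C. Where experiments were run across batches, the study's methods put batch in the model. The labels give no batch, so none was fitted here, and whether the uneven likeness within groups marks batches cannot be told. Alternatives were DESeq2 1.42.0, other scalings, no filter, 36 libraries in one fit, a replicate block, a threshold of 0.05, the other wild type as control, and leaving out each library.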

Additional observations from a re-analysis of the deposited data

Results flagged for a closer look

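Within the 48 combinations of member and group, 15 had a highest or lowest library whose gap to the next exceeded Dixon's 95% value for 6 libraries. Chance gives about 1 in 20. Of these, 6 were *osm-5* replicate 3, with *sod-2* at 591.4 CPM (77.7 to 85.6 in the other 5 libraries), *sod-4* at 49.6 (6.79 to 7.33), *sod-3* at 10.2 (5.89 to 7.18), *sod-5* at 0.331 (0.0786 to 0.139), *ctl-1* at 26.5 (38.3 to 43.1) and *ctl-2* at 39.1 (66.4 to 74.5).

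*eat-2* replicate 2 was the highest of its group for *sod-4* at 10.7 CPM (6.50 to 7.22 in the others), *ctl-1* at 77.3 (39.1 to 45.5) and *ctl-2* at 135.9 (71.3 to 85.3), and *eat-2* replicate 4 for *sod-3* at 3.80 (1.99 to 2.37). *ife-2* replicate 2 was the highest for *sod-2* at 95.1 CPM (65.3 to 74.7), and *ife-2* replicate 5 for *sod-5* at 0.412 (0.213 to 0.273). *glp-1* replicate 2 was the lowest for *sod-2* at 62.2 CPM (64.7 to 66.1). Wild type labelled 25 °C replicate 2 was the highest for *sod-4* at 9.18 CPM (6.59 to 7.103), and wild type labelled 20 °C replicate 5 for *ctl-2* at 79.0 (71.4 to 73.9).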

How the results depend on the processing

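The direction of *sod-3* in *glp-1*, *ife-2* and *osm-5* and of all 3 catalases in *ife-2* held under every alternative run. The one lost call among these with all libraries was that of *ctl-1* under muscle scaling, and with a library left out that of *sod-3* in *glp-1*. Values that were called, in the fit reported or under the alternative, changed sign for *sod-1* in *eat-2* under muscle scaling (log2 -0.12) and against wild type labelled 25 °C (-0.050), *sod-4* in *eat-2* against wild type labelled 25 °C (0.076), *sod-2* in *ife-2* under scaling by total counts (-0.31) and muscle scaling (-0.87), *sod-1* (-0.14) and *sod-4* (-0.21) in *ife-2* under muscle scaling, and *sod-4* in *osm-5* without *osm-5* replicate 3 (-0.43). Of values called in neither, *sod-2* in *ife-2* was at -0.060 in DESeq2, -0.050 with its size factors, -0.15 against wild type labelled 25 °C and -0.03 to -0.01 without any one library of wild type labelled 20 °C, *sod-2* in *eat-2* at -0.13 under muscle scaling and -0.063 against wild type labelled 25 °C, and *sod-4* in *osm-5* at -0.18 under scaling by total counts and -0.0073 with the block. In the *ife-2* fits without a library of wild type labelled 20 °C, the filter still asked for 6 libraries. There 14846 to 14884 genes were tested, against 16636 with all, so that the scaling rested on fewer genes. In all, 18 of 36 values of a member in a comparison changed sign under 1 alternative or more. Upper-quartile scaling called *sod-2* higher in *ife-2* (0.67). *sod-4* in *glp-1* was not called with 36 libraries in one fit (0.75). *osm-5* replicate 3's short-gene share was 45.3%; beyond such values the cause was not tested. Low counts limit *sod-5*.

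Scaling by total counts called 0 members lower in *glp-1*, 0 higher in wild type labelled 25 °C, 0 higher and 2 lower in *eat-2*, 2 lower in *ife-2* and 1 higher in *osm-5*. Of the peroxide and thiol list it called 6 genes in *glp-1*, 5 in *eat-2* and 2 in *osm-5*, and of the regulators 2 in *glp-1*, 6 in wild type labelled 25 °C and 1 in *osm-5*. Of all calls, the share higher was then 78.7% in *glp-1* (52.4% under TMM), 19.3% in wild type labelled 25 °C (54.2%), 27% in *eat-2* (58.96%), 36.1% in *ife-2* (51.9%) and, for *osm-5*, 13.6% (39.02%). Muscle scaling called 0 members lower in *glp-1*, 0 higher and 4 lower in wild type labelled 25 °C, 0 higher and 2 lower in *eat-2*, and 2 higher and 2 lower in *ife-2*, and its share higher was 66.1% in *glp-1*, 10.3% in wild type labelled 25 °C, 7.25% in *eat-2*, 13.5% in *ife-2* and, for *osm-5*, 53.8%. Upper-quartile scaling called 2 members higher in wild type labelled 25 °C and 0 lower in *eat-2*, and its share higher in *osm-5* was 26%. Under total-count scaling, all genes together had a median log2 change of 0.21 in *glp-1*, -0.18 in wild type labelled 25 °C, -0.11 in *eat-2*, -0.35 in *ife-2* and, for *osm-5*, -0.27, and changes under a scaling are relative to such shifts.

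DESeq2 called 2 members higher in wild type labelled 25 °C and 2 higher and 2 lower in *eat-2*, and 8 genes of the peroxide and thiol list in wild type labelled 25 °C. No filter left 0 members lower in *eat-2*. A threshold of 0.05 gave 2 higher in wild type labelled 25 °C, 2 higher and 2 lower in *eat-2* and 1 lower in *osm-5*. Against wild type labelled 25 °C, 0 members were higher and 0 lower in *eat-2*, and 1 was higher in *osm-5*. One fit of 36 libraries called 0 lower in *glp-1*, 0 higher and 1 lower in wild type labelled 25 °C, and 0 higher and 0 lower in *eat-2*. It called 8, 13 and 12 peroxide and thiol genes in *glp-1*, *ife-2* and *osm-5*, 9, 6, 8 and 15 transferases in *glp-1*, wild type labelled 25 °C, *eat-2* and *osm-5*, and 3 and 4 regulators in *eat-2* and *osm-5*.

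Libraries of different groups share replicate numbers, but same-numbered libraries did not deviate together in every pair (correlations of -0.64 to 0.55), so the numbers were not taken to pair them. With the replicate number as a block, 0 members were lower in *glp-1*, 0 higher in wild type labelled 25 °C and 0 higher and 0 lower in *eat-2*. The peroxide and thiol list had 7 calls in *glp-1* and 3 in *osm-5*, the transferases 2 in *osm-5*, and the regulators 3 in *eat-2* and 1 in *osm-5*. Permuted within 6 pairs the smallest possible p is 0.031, which passes after adjustment only where 16 or more of the 25 ratios reach it, so that the smallest adjusted p of 0.0868 bears on no ratio. The values were unaltered: *sod-3*/*sod-2* was 1.48 in *glp-1* and 2.46 in *ife-2*, *sod-4*/*sod-1* 0.74 in *glp-1*, -0.72 in wild type labelled 25 °C and -0.61 in *eat-2*, *ctl-1*/*ctl-2* 0.27 in *glp-1* and -0.11 in wild type labelled 25 °C, and *ctl-3*/*ctl-2* -0.39 in *glp-1*, -0.37 in wild type labelled 25 °C, -0.43 in *eat-2* and, in *ife-2*, -3.99.

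With each library left out in turn, members called were 2 to 3 higher and 0 to 1 lower in *glp-1*, 0 to 2 higher in wild type labelled 25 °C, 0 to 2 higher and 0 to 2 lower in *eat-2*, 5 to 6 higher in *ife-2*, and 2 to 3 higher and 0 to 2 lower in *osm-5*. Peroxide and thiol calls were 7 to 12 in *glp-1*, 3 to 5 in *eat-2* and 5 to 11 in *osm-5*, transferase calls 3 to 17 in *osm-5*, and regulator calls 0 to 1 in *glp-1*, 3 to 6 in wild type labelled 25 °C, 3 to 6 in *eat-2* and 2 to 5 in *osm-5*. *ctl-1*/*ctl-2* in *eat-2* ran from -0.13 to -0.085, *sod-3*/*sod-2* in *osm-5* from 0.62 to 1.09 and *sod-4*/*sod-1* in *osm-5* from -0.97 to -0.38, and the log2 fold change of *sod-4* in *osm-5* from -0.43 to 0.81.

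Over all genes, the share called moved by more than 1.5 times in count under these settings. In *glp-1* it was 22.9%, against 15.1% with the replicate block and 36% at a threshold of 0.05. In wild type labelled 25 °C it was 23.9%, against 13% with 36 libraries in one fit and 38.6% at 0.05. In *eat-2* it was 31.2%, against 50.2% under muscle scaling, 12% with 36 libraries in one fit, 49.1% at 0.05 and 0.288% with the other wild type. In *osm-5* it was 18%, against 10.2% under scaling by total counts, 36% with 36 libraries in one fit, 8.59% with the block, 35% at 0.05, 7.11% with the other wild type and 45% without replicate 3.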
